A study of Sus scrofa with 16 samples.

Results

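Genes that mark neural stem cells, neuroblasts and young neurons were followed in the hippocampus of 16 preterm pigs. The set was a list of 10 gene symbols known for these cells (DCX, NES, SOX2, SOX4, SOX11, PROX1, NEUROD1, EOMES, TUBB3 and CALB2), and membership used no measured value. Of these, 6 were found among the 22815 distinct entries of the expression table through their Ensembl gene IDs, each as a single entry, and all 6 passed the filter that left 13590 entries for testing, a mean over the pigs no lower than 0.5 FPKM (fragments mapped to a transcript, scaled by its length and by the fragments mapped in the sample). The other 4, SOX2, SOX4, EOMES and TUBB3, were not analysed here, because SOX2 had no ID in the gene-name table and the IDs of SOX4, EOMES and TUBB3 were not among those of the expression table.

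The pigs were crossbred, delivered preterm by caesarean section and reared for just over a week on rising amounts of human donor milk and falling amounts of parenteral nutrition, under which necrotizing enterocolitis (NEC), an inflammatory and necrotic disease of the immature gut, arises spontaneously in some animals. All 3 groups had this rearing in common. The 6 Si-NEC pigs (3 female, 3 male) had severe lesions of the small intestine, whatever the state of the colon, the 5 Co-NEC pigs (2 female, 3 male) had severe lesions in the colon alone, and the 5 No NEC pigs (2 female, 3 male) had no macroscopic lesion. Each value comes from the left hippocampus of a separate pig. The sample labels do not give the litter or the type of milk of each pig, so neither could be entered in a test.

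The hippocampus is among the few brain regions where neurons are still being made around and after birth. In the dentate gyrus, dividing radial glia-like cells that hold the intermediate filament nestin (NES) and the transcription factor SOX2 give rise to intermediate progenitors with EOMES and then to neuroblasts. Neuroblasts switch on the transcription factors NEUROD1, SOX4 and SOX11 and the microtubule protein doublecortin (DCX), young granule cells pass through a stage with the calcium-binding protein calretinin (CALB2), and PROX1 sets and holds granule cell identity. CALB2 is also made by a class of interneurons and PROX1 by some interneurons, and NES also by vessel cells. A hippocampal homogenate mixes all of these, and in such bulk RNA fewer cells of a type and less RNA per cell cannot be told apart.

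The 6 genes differed in level, and some steps of their order held in every pig. FPKM is scaled by transcript length, so levels of different genes can be set side by side, but only roughly. How well each gene was annotated and mapped was not checked. CALB2 had the highest mean, 20.64 FPKM over the 16 pigs, followed by DCX (15.71 FPKM), SOX11 (13.37 FPKM), NEUROD1 (8.484 FPKM), PROX1 (7.901 FPKM) and NES (1.644 FPKM). CALB2 exceeded DCX in 12 of 16 pigs, DCX exceeded SOX11 in 12 of 16 pigs and NEUROD1 exceeded PROX1 in 10 of 16 pigs, so these neighbours traded places between pigs. SOX11 exceeded NEUROD1, and PROX1 exceeded NES, in 16 of 16 pigs. The mean level of NES, which marks the stem cell end of the lineage, was as high as or higher than that of 12.4% of the entries tested, and that of CALB2 as high as or higher than 71.1%. Between pigs the range of each gene was about 2-fold. The highest pig exceeded the lowest by 1.78-fold for DCX, by 1.92-fold for NEUROD1, by 2.0-fold for CALB2, by 2.06-fold for SOX11, by 2.09-fold for PROX1 and by 2.21-fold for NES. The spread of log2 values within groups was 0.180 for DCX, as large as or larger than that of 15.3% of the entries tested, and 0.287 for CALB2 (50.3%), the smallest and the largest of the 6. By the same measure NEUROD1 (19.8%) and NES (20.5%) also varied less than most entries, while SOX11 (47.2%) and PROX1 (49.7%) lay near the middle.

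Facts of the whole series bear on these values. The deposited FPKM summed to between 544629 and 864931 per pig. No NEC pig 230-15 (sum 864931, median correlation with the other pigs 0.902) and Si-NEC pig 223-15 (823320 and 0.933) stood apart from the other 14. Values without them are given beside many of the results that they moved, but not beside all. No counts came with the values, so the read depth and counting error behind each are unknown. Neuronal genes were strongly expressed, with the vesicular glutamate transporter SLC17A7 at 610.2 ± 45.19 FPKM (SD, n = 5) in No NEC pigs and the presynaptic gene SYN1 at 215.3 ± 25.25 FPKM (SD, n = 5), and so was the astrocyte filament GFAP, at 438 to 938 FPKM in Si-NEC pigs.

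**Figure D1:**
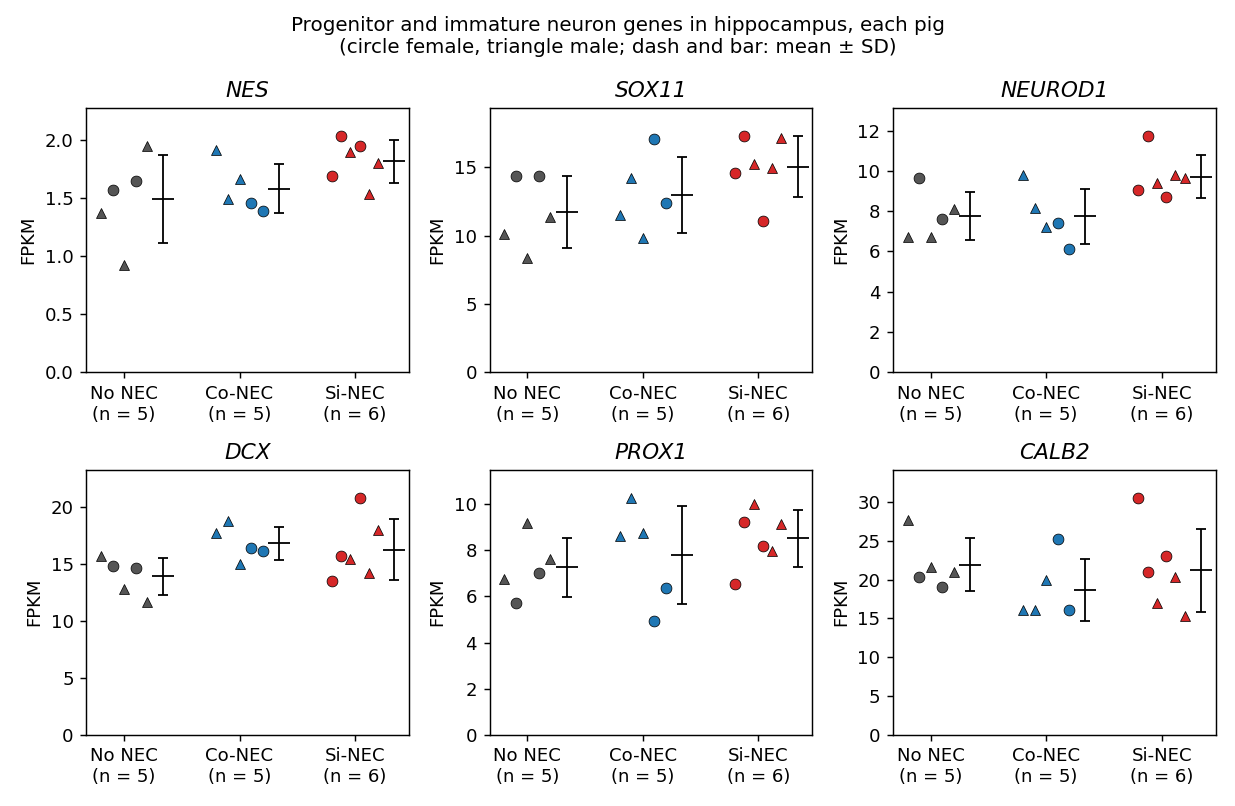
Level of each of the 6 genes in each pig, in FPKM from 0, by group (circles female, triangles male; dash and bar give the group mean ± SD, n = 5, 5 and 6 pigs). NEUROD1, SOX11, NES and PROX1 were highest on average in Si-NEC. DCX, SOX11, NES and PROX1 were lowest on average in No NEC, while every gene had overlapping groups.

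The first comparison asks whether severe disease of the small intestine goes with a different level of these genes. In Si-NEC pigs 5 of the 6 genes had a higher fitted level than in No NEC pigs and CALB2 a lower one, with a median log2 difference of 0.23 against 0.015 over all entries tested, of which 53.8% lay above 0. No gene had an adjusted limma p under 0.2, the cutoff that the study applied to q values from its own program, Cuffdiff (background 0.00736% of entries), and their adjusted p-values were all 1. At an unadjusted limma p under 0.05, 2 of the 6 genes were higher, NEUROD1 and SOX11, against 1.59% of all entries, and 0 were lower, against 1.02%.

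NEUROD1 encodes a basic helix-loop-helix factor that drives neuroblasts to differentiate into granule neurons. Its level was 6.73, 9.64, 6.70, 7.60 and 8.13 FPKM in the 5 No NEC pigs. The 6 Si-NEC pigs had 9.03, 11.7, 9.39, 8.69, 9.78 and 9.65 FPKM. Of the No NEC pigs, 4 lay below every Si-NEC pig, and the fifth, at 9.64, lay among them. The mean was 9.711 ± 1.068 FPKM (SD, n = 6) against 7.758 ± 1.212 FPKM (SD, n = 5), a log2 difference of 0.31 ± 0.12 (SE; 95% interval 0.05 to 0.58) on the log2(FPKM + 0.5) scale used throughout (exact permutation p = 0.0173, two-sided; the smallest p that 6 against 5 pigs can give is 0.00216). The adjusted p in limma was 1, and 0.871 to 1 over the alternatives tried. With the pigs rescaled to a common median, the exact p was 0.0519, and without pigs 223-15 and 230-15 it was 0.0556, with a log2 difference of 0.28 (unadjusted limma p = 0.0417). The unadjusted limma p exceeded 0.05 without No NEC pig 540-14 (0.0627), No NEC pig 230-15 (0.0518) or Si-NEC pig 224-15 (0.0566).

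SOX11, a SoxC factor that activates the pan-neuronal programme in newborn neurons, was at 10.1, 14.4, 8.39, 14.4 and 11.4 FPKM in No NEC pigs and at 14.6, 17.3, 15.2, 11.1, 14.9 and 17.1 FPKM in Si-NEC pigs. Thus 5 of 6 Si-NEC pigs lay above every No NEC pig and the remaining one, 246-15, lay within the No NEC range. The means were 15.04 ± 2.246 FPKM (SD, n = 6) and 11.73 ± 2.637 FPKM (SD, n = 5), a log2 difference of 0.36 ± 0.16 (SE; 95% interval 0.01 to 0.71; exact permutation p = 0.0476; adjusted limma p = 1, and 0.871 to 1 over the alternatives). This difference leaned on the No NEC pig that stood apart and was lowest of all, 230-15. Without it the log2 difference was 0.25 (unadjusted limma p = 0.115), and without both pigs that stood apart it was 0.26 (0.124; exact permutation p = 0.151). With rescaled pigs the exact permutation p was 0.104. Leaving out a single pig kept the exact p under 0.05 in 3 of 11 cases.

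With all pigs and equal weights, the other 4 genes had no unadjusted limma p under 0.05. NES was at 1.37, 1.57, 0.920, 1.65 and 1.95 FPKM in No NEC pigs and at 1.69, 2.04, 1.90, 1.95, 1.53 and 1.80 FPKM in Si-NEC pigs, a log2 difference of 0.24 ± 0.15 (SE; 95% interval -0.09 to 0.56; exact permutation p = 0.0909). The lowest value was again that of pig 230-15, and without that pig the log2 difference was 0.12. DCX, which bundles microtubules in migrating neuroblasts, was 15.7, 14.8, 12.8, 14.6 and 11.7 FPKM in No NEC pigs against 13.5, 15.7, 15.4, 20.8, 14.2 and 18.0 FPKM in Si-NEC pigs (log2 difference 0.21 ± 0.13, SE; exact permutation p = 0.126). Only the pigs with 20.8 and 18.0 FPKM exceeded every No NEC pig. With array weights, which give less weight to pigs that fit poorly, the DCX difference was 0.28, with an unadjusted limma p of 0.0297 and an adjusted one of 0.871.

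PROX1 was 6.76, 5.73, 9.20, 7.02 and 7.61 FPKM in No NEC pigs and 6.54, 9.25, 10.04, 8.18, 7.98 and 9.16 FPKM in Si-NEC pigs, a log2 difference of 0.22 ± 0.14 (SE; 95% interval -0.09 to 0.53; exact permutation p = 0.123), or 0.14 without No NEC pig 228-15. The pigs that stood apart ran against the rest here, 223-15 being the lowest Si-NEC pig and 230-15 the highest No NEC pig. Without both, the log2 difference was 0.37, every remaining Si-NEC pig lay above every remaining No NEC pig, as was so for 0.706% of all entries in the same pigs, and the exact permutation p was 0.00794, the smallest that 5 against 4 pigs can give (unadjusted limma p = 0.00628; adjusted 1). Array weights gave 0.36, with an unadjusted limma p of 0.00483 and an adjusted one of 0.807. CALB2, at 27.8, 20.3, 21.7, 19.0 and 21.0 FPKM in No NEC pigs, ranged from 15.3 to 30.5 FPKM in Si-NEC pigs and enclosed the whole No NEC range (log2 difference -0.07 ± 0.17, SE; 95% interval -0.44 to 0.30; exact permutation p = 0.682). Leaving out No NEC pig 540-14 brought the CALB2 difference to 0.01, and leaving out pigs 223-15 and 230-15 brought it to -0.18.

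**Figure D2:**
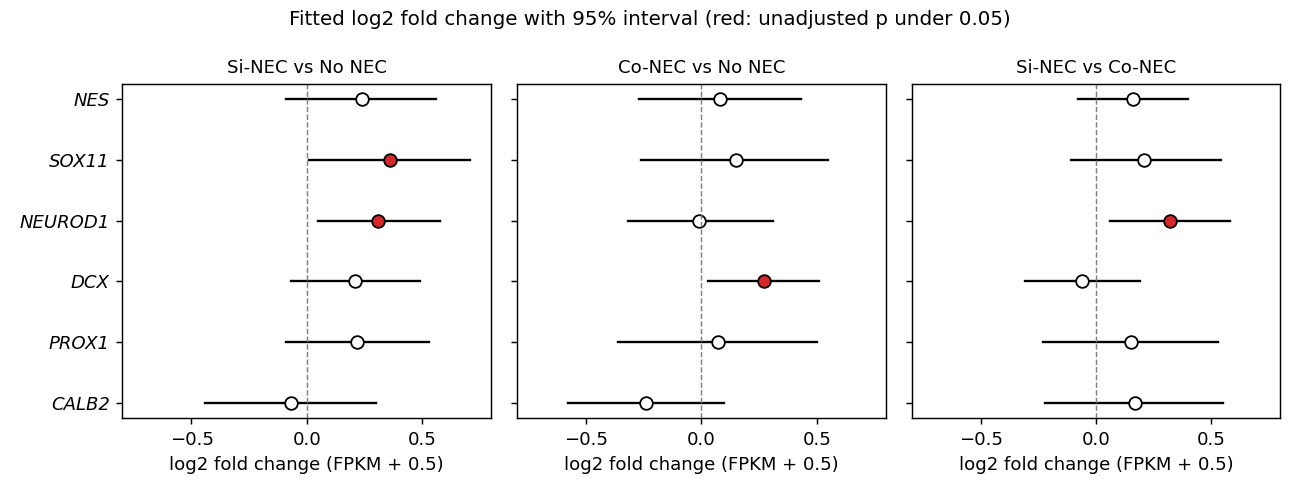
Fitted log2 difference of each gene (point) with its 95% interval (line) in the 3 comparisons, on the log2(FPKM + 0.5) scale; red marks an unadjusted limma p under 0.05 and the dashed line marks 0. NEUROD1 stands at 0.31 and 0.32 in the comparisons with Si-NEC and at -0.01 in Co-NEC against No NEC, where DCX is at 0.27.

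Disease of the colon alone was compared with the same 5 No NEC pigs, so the values below and those above share their controls. Of the 6 genes, 4 had a higher and 2 a lower fitted level in Co-NEC pigs, with a median log2 difference of 0.08 against 0.011 over all entries, 52.1% of which lay above 0. Without pig 230-15, which belongs to the controls here, these numbers were 3 and 3 and the median was 0.0. The smallest adjusted limma p was 0.812, so 0 genes were called at 0.2 (background 0.00736%). At an unadjusted limma p under 0.05, DCX was higher, 1 of 6 against 2.12% of all entries, and 0 were lower, against 1.32%.

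DCX was 17.7, 18.8, 15.0, 16.4 and 16.1 FPKM in the 5 Co-NEC pigs, and 4 of these 5 lay above every No NEC pig. The Co-NEC mean was 16.82 ± 1.465 FPKM (SD, n = 5) and the No NEC mean 13.92 ± 1.645 FPKM (SD, n = 5). The log2 difference was 0.27 ± 0.11 (SE; 95% interval 0.03 to 0.51), with an exact permutation p of 0.0159 (two-sided; the smallest that 5 against 5 pigs can give is 0.00794) and an adjusted limma p of 0.812, or 0.502 to 0.99 over the alternatives. The exact p stayed between 0.0159 and 0.0397 when any single pig was left out, while the unadjusted limma p rose above 0.05 without No NEC pig 550-14 (0.0834), Co-NEC pig 225-15 (0.0672) or Co-NEC pig 545-14 (0.080).

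The colon group overlapped the controls in the other 5 genes as well as in DCX, and among these 5 least so in CALB2. NEUROD1 was 9.78, 8.16, 7.22, 7.41 and 6.11 FPKM in Co-NEC pigs, reaching both above and below the No NEC range, with a log2 difference of -0.01 ± 0.14 (SE; 95% interval -0.32 to 0.31; exact permutation p = 0.937). The means of both groups were close, at 7.738 ± 1.358 FPKM (SD, n = 5) and 7.758 ± 1.212 FPKM. SOX11 was 11.5, 14.2, 9.80, 17.1 and 12.4 FPKM, with only the pig at 17.1 above the No NEC range (log2 difference 0.15 ± 0.18, SE; 95% interval -0.26 to 0.55; exact permutation p = 0.46). Without No NEC pig 230-15 the SOX11 difference was 0.04, without Co-NEC pig 255-15 it was 0.05 and without Co-NEC pig 552-14 it was 0.24. NES ranged from 1.39 to 1.92 FPKM, inside the No NEC range, with a log2 difference of 0.08 (95% interval -0.27 to 0.43), which changed sign under several alternatives. PROX1 was 8.65, 10.3, 8.75, 4.92 and 6.37 FPKM, which includes the highest and the lowest value of this gene in all 16 pigs, with a log2 difference of 0.07 (95% interval -0.36 to 0.50), or -0.04 to 0.21 with single pigs left out. CALB2 was the gene lowest relative to controls, at 16.02, 16.04, 19.98, 25.22 and 16.08 FPKM, and 3 of the 5 Co-NEC pigs lay below every No NEC pig. Its log2 difference was -0.24 ± 0.15 (SE; 95% interval -0.58 to 0.10; exact permutation p = 0.143). Without No NEC pig 540-14 the CALB2 difference was -0.15, and without Co-NEC pig 255-15 it was -0.35, with an exact permutation p of 0.0317 and an adjusted limma p of 0.713.

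Si-NEC and Co-NEC pigs were also compared with each other. Of the 6 genes, 5 were higher in Si-NEC, with a median log2 difference of 0.16 against 0.000 over all entries, 50.1% of which lay above 0. None passed an adjusted limma p of 0.2 (background 0.0147%; smallest 0.858), and at an unadjusted p under 0.05, 1 of 6 was higher against 3.25% of all entries and 0 were lower against 2.4%. That gene was NEUROD1, with a log2 difference of 0.32 ± 0.12 (SE; 95% interval 0.06 to 0.58; exact permutation p = 0.0281; adjusted limma p = 0.858, and 0.247 to 1 over the alternatives). Of the 5 Co-NEC pigs, 4 lay below every Si-NEC pig, and Co-NEC pig 225-15, at 9.78 FPKM, lay among them. Leaving out single pigs gave log2 differences of 0.24 to 0.40 and an unadjusted limma p under 0.05 in 10 of 11 cases, the exception being Co-NEC pig 231-15 (0.0605). The exact permutation p was under 0.05 in 9 of 11 cases, the exceptions being Co-NEC pig 231-15 (0.0571) and Si-NEC pig 224-15 (0.0556). SOX11 differed by 0.21 (95% interval -0.11 to 0.54; exact permutation p = 0.197) and NES by 0.16 (95% interval -0.08 to 0.40; exact permutation p = 0.0801), with 3 of the 5 Co-NEC pigs below every Si-NEC pig for NES. CALB2, PROX1 and DCX differed by 0.17, 0.15 and -0.06, with 95% intervals of -0.22 to 0.55, -0.23 to 0.53 and -0.31 to 0.19. Single pigs moved these. CALB2 differed by 0.06 without Si-NEC pig 223-15 and by 0.28 without Co-NEC pig 255-15, PROX1 by 0.01 without Co-NEC pig 255-15, by 0.09 without Co-NEC pig 231-15 and by 0.26 without Co-NEC pig 545-14, DCX by -0.13 to -0.01 over the pigs left out, and SOX11 by 0.12 without Co-NEC pig 552-14. The groups overlapped for each of the 6 genes in all 3 comparisons, where 0.118%, 0.235% and 0.309% of all entries were separated with the first-named group higher and 0.0368%, 0.228% and 0.235% with it lower, in the order given here. Over the 3 comparisons, 18 exact permutation tests were run and 4 had a p under 0.05, all with the first-named group higher, 2 of 6 against 1.63% of all entries in Si-NEC against No NEC, 1 of 6 against 2.49% in Co-NEC against No NEC and 1 of 6 against 3.33% in Si-NEC against Co-NEC. At that cutoff 0.9 of 18 would be so under chance alone, counting both directions. That number cannot weigh chance here, because the tests share pigs and the genes were proposed with earlier results of these data known.

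The wider lineage was read from lists of genes for its successive stages. Stem cell and radial glia genes, of which 8 of 15 listed were tested, stood above No NEC in 7 cases and below it in 1 in the Si-NEC pigs. The median log2 difference was 0.14, and none had an unadjusted limma p under 0.05 (all entries: 1.59% higher, 1.02% lower). SOX9, a factor that maintains neural stem cells and astrocytes, was 31.4 ± 5.979 FPKM (SD, n = 6) in Si-NEC and 26.01 ± 2.625 FPKM (SD, n = 5) in No NEC, with 4 of 6 Si-NEC pigs above every No NEC pig (log2 difference 0.25; exact permutation p = 0.113), a difference of 0.13 without pigs 223-15 and 230-15. TNC, an extracellular matrix glycoprotein of the stem cell niche, was the gene on the other side, at 16.8 ± 9.414 FPKM (SD, n = 6) against 24.46 ± 5.995 FPKM (SD, n = 5), a log2 difference of -0.68 (exact permutation p = 0.123) that was -0.40 without the pigs that stood apart. The list itself moved with them. Without pigs 223-15 and 230-15, the count was 5 higher and 3 lower and the median 0.06. Co-NEC pigs had 4 of these genes higher and 4 lower than No NEC pigs, with a median of -0.01.

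Genes of neuronal fate and neuroblasts (9 of 23 tested) were divided, 5 higher and 4 lower in Si-NEC with a median of 0.02, or 7 and 2 with a median of 0.08 without the pigs that stood apart. With all pigs, 1 of the 9 was higher in Si-NEC at an unadjusted limma p under 0.05, against 1.59% of all entries. None was lower, against 1.02%. That gene, picked by the smallest p of its list, was NHLH1, a helix-loop-helix factor of newly born neurons. NHLH1 was 0.841, 1.56, 0.964, 1.78 and 1.23 FPKM in No NEC pigs, and 1.61, 2.14, 2.71, 3.14, 2.14 and 1.77 FPKM in Si-NEC pigs. Of the Si-NEC pigs, 4 of 6 lay above every No NEC pig, and Co-NEC pigs were at 1.57, 1.58, 1.29, 1.74 and 2.69 FPKM, between the other groups on average. The log2 difference of NHLH1 between Si-NEC and No NEC was 0.64 ± 0.19 (SE; exact permutation p = 0.0108; unadjusted limma p = 0.00575; adjusted 1), and it was 0.54 to 0.73 when single pigs were left out and 0.64 without both pigs that stood apart. In Co-NEC against No NEC the NHLH1 difference was 0.36 ± 0.20 (SE; exact permutation p = 0.119). The other genes of this list differed less between Si-NEC and No NEC. IGFBPL1 differed by 0.16 (exact permutation p = 0.439), ELAVL2 by 0.02, BCL11B by -0.02 and NHLH2 by -0.04. The microtubule regulator STMN2 differed by -0.06, the collapsin response mediator DPYSL5 by 0.03 and the adhesion molecule NCAM1 by -0.03, while TBR1, a factor of young glutamatergic neurons that follows EOMES, differed by 0.12 (exact permutation p = 0.152).

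Mature neuron genes (8 of 13 tested) were divided, 3 above and 5 below No NEC in Si-NEC pigs with a median of -0.01, and 5 higher and 3 lower in Co-NEC with a median of 0.06, none at an unadjusted limma p under 0.05. Proliferation genes (5 of 10 tested) lay at low levels, with the topoisomerase TOP2A at 1.723 ± 0.231 FPKM (SD, n = 5) and the mitotic kinase CDK1 at 0.8692 ± 0.1991 FPKM (SD, n = 5) in No NEC pigs. In Si-NEC, 1 of the 5 was higher and 4 were lower, with a median of -0.14, or -0.04 without the pigs that stood apart. MCM5, a replication helicase subunit, was listed at 0 in every pig and was not tested.

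CALB2 is shared with interneurons, so their genes were set beside it. Of 9 interneuron genes tested, 0 stood above and 9 below the No NEC level in Si-NEC pigs, with a median log2 difference of -0.08, and these counts were 0 and 9 also without pigs 223-15 and 230-15. The differences were small, from -0.21 for the neuropeptide CCK to -0.03 for the interneuron factor LHX6. At an unadjusted limma p under 0.05, 1 of the 9 was lower, against 1.02% of all entries, and 0 were higher, against 1.59%. That gene was GAD1, which makes the transmitter GABA. GAD1 was 103, 93.1, 94.5, 84.6 and 96.4 FPKM in No NEC pigs and 79.9, 82.9, 84.2, 78.0, 83.2 and 86.2 FPKM in Si-NEC pigs, so that 5 of 6 Si-NEC pigs lay below every No NEC pig. The log2 difference was -0.19 ± 0.08 (SE; exact permutation p = 0.00433; unadjusted limma p = 0.0432, adjusted 1), and the unadjusted limma p was 0.103 without No NEC pig 540-14. In Co-NEC against No NEC, 2 of the 9 genes were higher and 7 lower, with a median of -0.16 (-0.09 without pig 230-15), and CALB2 itself was at -0.24. GAD1 differed there by -0.07 ± 0.08 (SE; exact permutation p = 0.198) and the neuropeptide VIP by -0.79 ± 0.49 (SE; exact permutation p = 0.198), which was -0.41 without No NEC pig 253-15, at 44.1 FPKM. For all these lists, 0 genes had an adjusted limma p under 0.2 in any comparison.

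**Figure D3:**
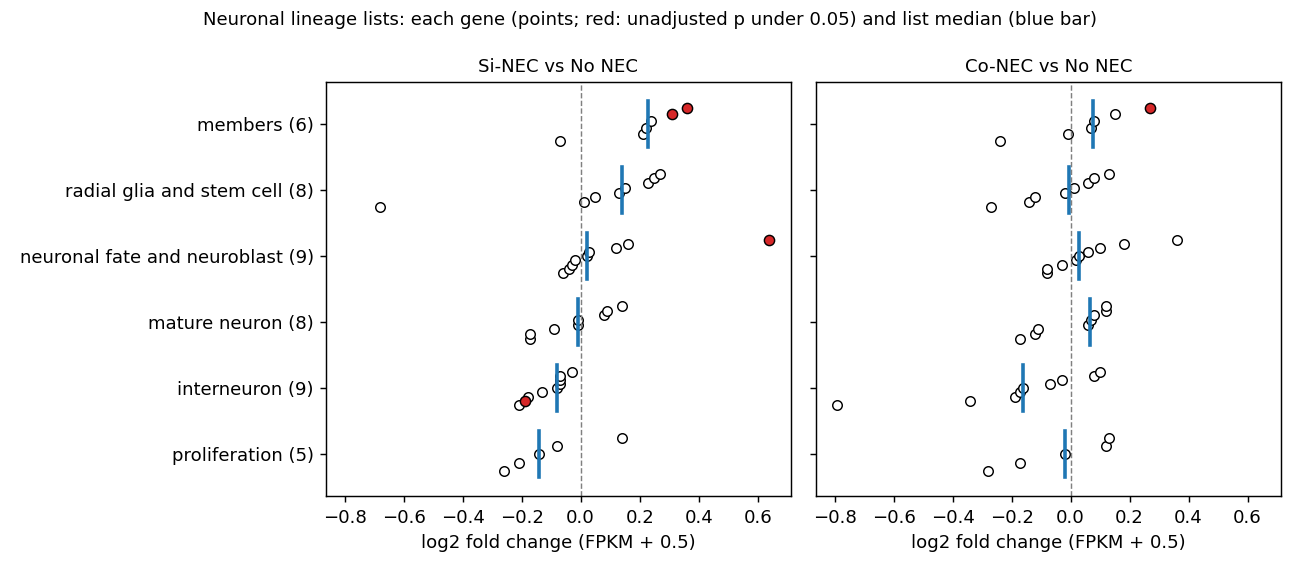
Log2 difference of each tested gene of the 6 lists (points; red marks an unadjusted limma p under 0.05) and the list median (blue bar) in Si-NEC and in Co-NEC against the same No NEC pigs. In Si-NEC the interneuron genes all lie below 0 with a median of -0.08, and the 6 progenitor and immature neuron genes have a median of 0.23.

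Other cell types that a hippocampal dissection can hold were checked by the summed level of their markers. Choroid plexus markers, chiefly TTR, summed to 4.94 to 23.5 FPKM in No NEC, 0.232 to 13.3 FPKM in Co-NEC and 5.52 to 25.5 FPKM in Si-NEC pigs, with TTR listed at 0 in Co-NEC pig 255-15. Microglial markers (4 genes) summed to 44.0 to 99.8, 46.3 to 75.2 and 37.8 to 113 FPKM in the same order, with pig 230-15 highest in No NEC and pig 223-15 highest in Si-NEC. Oligodendrocyte markers (3 genes) summed to 1450 to 2750, 1640 to 3040 and 1330 to 2940 FPKM, and those same pigs were again highest in their groups. Astrocyte markers (4 genes, of which ALDH1L1 was listed at 0 in every pig) summed to 944 to 1140, 983 to 1100 and 892 to 1530 FPKM. Oligodendrocyte precursor markers (3 genes) summed to 168 to 275, 171 to 246 and 178 to 236 FPKM, and meningeal and mural markers (5 genes) to 33.8 to 69.2, 33.2 to 56.2 and 31.2 to 57.8 FPKM. Endothelial markers (2 genes), which bear on NES in vessel cells, summed to 8.02 to 21.9, 13.3 to 19.6 and 14.8 to 28.3 FPKM. The pig highest in these markers was also highest in NES in Si-NEC (224-15) and Co-NEC (225-15). In No NEC it was not, with NES at 1.57 FPKM in pig 228-15 and 1.95 FPKM in pig 550-14. Whether NES followed these markers over all pigs was not tested. Erythroid markers (3 genes) summed to 82.8 to 1290, 72.3 to 324 and 22.3 to 246 FPKM. Single markers also had an unadjusted limma p under 0.05, each picked by the smallest p of its list. In Si-NEC against Co-NEC, 3.25% of all entries were higher at that p and 2.4% lower. In Si-NEC against No NEC these shares were 1.59% and 1.02%. The endothelial adhesion molecule PECAM1 was 9.791 ± 2.71 FPKM (SD, n = 6) in Si-NEC and 6.75 ± 1.095 FPKM (SD, n = 5) in Co-NEC (log2 difference 0.48; exact permutation p = 0.0368), while FLT1, the other endothelial gene tested, differed by -0.12. In the same comparison the precursor receptor PDGFRA differed by -0.33 (exact permutation p = 0.039), or -0.24 without pig 223-15, while CSPG4 and OLIG1 of its list differed by 0.29 and 0.05. The synaptic vesicle protein SYT1 differed by -0.23 (exact permutation p = 0.0195), in a list with 5 genes higher and 3 lower. Between Si-NEC and No NEC the myelin gene OPALIN differed by -0.67 (exact permutation p = 0.0541), or by -0.50 without pigs 223-15 and 230-15. The adjusted limma p-values of PECAM1, PDGFRA, SYT1 and OPALIN were 0.858 to 1. The ranges of all 8 sets overlapped between groups, and their part in the differences of the progenitor and immature neuron genes was not tested.

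The 6 genes were then compared across pigs to see which varied together. Of the 15 pairs, 9 had a positive Pearson's r. The closest pair was NES and NEUROD1, with r = 0.677 (permutation p = 0.00315, adjusted over the 15 pairs 0.0472) and Spearman's rho = 0.659 (permutation p = 0.00678, adjusted 0.0845) over the 16 pigs. Leaving out pigs 230-15 and 224-15, those farthest from the median NES level, gave r = 0.593. With the group means removed r was 0.57 (adjusted permutation p = 0.161), and without pigs 223-15 and 230-15 it was 0.679 (adjusted permutation p = 0.124). SOX11 and NEUROD1 had r = 0.594 (permutation p = 0.0155, adjusted 0.116) and rho = 0.621 (permutation p = 0.0113, adjusted 0.0845), and r was 0.467 without pigs 230-15 and 552-14, both low in SOX11 and farthest from its median. PROX1 and CALB2 were the pair most opposed, with r = -0.509 (permutation p = 0.0439, adjusted 0.22), rho = -0.426 (permutation p = 0.0988, adjusted 0.494) and r = -0.495 without pigs 255-15 and 228-15, both low in PROX1 and farthest from its median. NES and SOX11 had r = 0.445 (permutation p = 0.0808, adjusted 0.303), and r was 0.08 without pigs 223-15 and 230-15. DCX had r between -0.333 and 0.266 with the other 5.

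**Figure D4:**
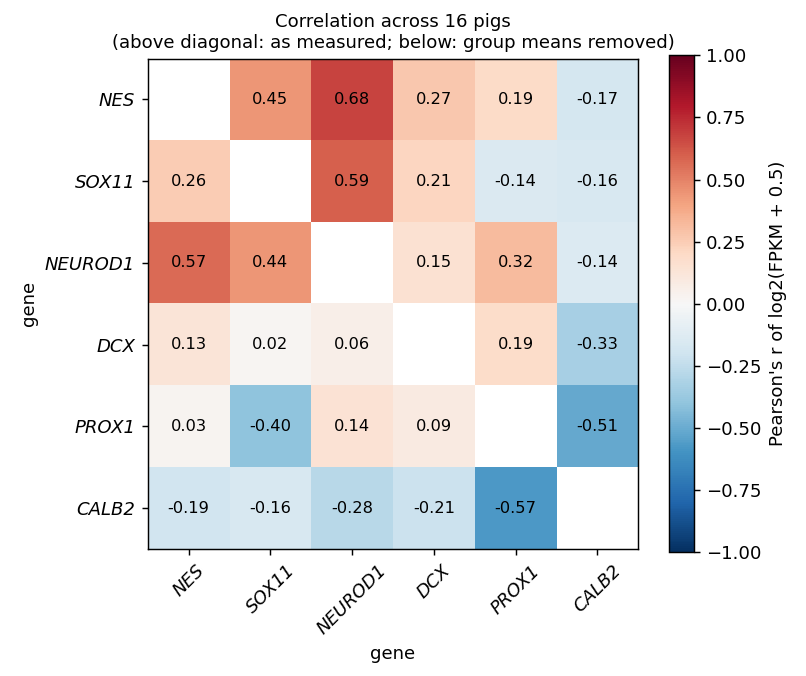
Pearson's r between each pair of the 6 genes on log2(FPKM + 0.5) over 16 pigs, as measured above the diagonal and with group means removed below it; colour runs from -1 (blue) to 1 (red). NES with NEUROD1, at 0.677, and SOX11 with NEUROD1, at 0.594, are the warmest pairs, while NES with SOX11 is at 0.445, or 0.257 with group means removed. PROX1 with CALB2 is the coldest pair on both sides of the diagonal, at -0.509 and -0.571.

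The pigs carry 2 kinds of label number, ending in 14 or in 15, which the labels do not explain. Each group held 2 pigs ending in 14, with 3, 3 and 4 ending in 15 in No NEC, Co-NEC and Si-NEC. The NEUROD1 difference between Si-NEC and No NEC was 0.28 among pigs ending in 15 and 0.35 among those ending in 14, and that of SOX11 was 0.29 and 0.47. The DCX difference between Co-NEC and No NEC was 0.24 and 0.30, and the NEUROD1 difference between Si-NEC and Co-NEC was 0.33 and 0.30. These had the same direction in both kinds, but they were picked for a low p in the same pigs, so this is a description only. Some other differences changed sign between pigs ending in 15 and in 14. CALB2 in Si-NEC against No NEC was 0.10 and -0.37, and PROX1 in Co-NEC against No NEC was -0.14 and 0.38. The correlation of NES and NEUROD1 was 0.763 over the 10 pigs ending in 15 and 0.397 over the 6 ending in 14, and that of PROX1 and CALB2 was -0.374 and -0.958.

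Sex was balanced between groups within 1 pig, and the 6 genes were also compared between the 7 female and 9 male pigs, a comparison chosen after the data were seen. PROX1 was 6.859 ± 1.464 FPKM (SD, n = 7) in females and 8.712 ± 1.127 FPKM (SD, n = 9) in males, a log2 difference, female minus male, of -0.34 (exact permutation p = 0.0124, two-sided, unadjusted, 1 of 6 such tests). The share of all entries that differed between the sexes at such a p is not given here, so whether PROX1 is unusual is not known. The next largest differences were 0.22 for SOX11 (exact permutation p = 0.159) and 0.18 for CALB2 (0.219), and DCX, NES and NEUROD1 differed by 0.05, 0.05 and 0.02. Whether the group differences depended on sex was fitted with an interaction in limma. Of 18 interactions, 0 had an adjusted p under 0.2 and 2 an unadjusted p under 0.05, both in Si-NEC against No NEC, where 10.8% of all entries had one. For SOX11 the log2 difference of males minus that of females was 0.67 ± 0.27 (SE), and for CALB2 it was -0.72 ± 0.28 (SE), each with an adjusted limma p of 0.439. The median of this value over all entries was -0.17, and with rescaled pigs it was -0.01, with SOX11 at 0.84 and CALB2 at -0.55. Each sex holds 2 or 3 pigs a group in that comparison.

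For each gene, the 3 named entries whose levels followed it most closely over the 16 pigs were picked by Pearson's r among 9067 others. They are a description, since the highest of so many values are high by selection. SOX11 was followed by TTF1 (r = 0.878), STK35 (0.844) and KIF7 (0.833), a regulator of Hedgehog signalling in the cilium. NES was followed by DACH1 (0.849), GPR153 (0.837) and SOCS7 (0.784), but without pigs 223-15 and 230-15 these were 0.645, 0.682 and 0.441. NEUROD1 was followed by FAIM2 (0.825), TDRD3 (0.796) and FBXL7 (0.782), and CALB2 by C1orf74 (0.817), the neuronal calcium sensor NCALD (0.803) and DUSP26 (0.772). DCX was followed by CCDC6 (0.810), SEZ6L (0.806) and PPP1R15B (0.798), and PROX1 by DTD2 (0.768), SLC18A1 (0.759) and SUSD1 (0.720). SOCS7, TDRD3 and DTD2 each had 2 entries in the table, of which the one closest in level is given.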

How the data were processed

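RNA from the left hippocampus of 16 pigs was sequenced. The authors trimmed the reads, aligned them to Sscrofa10.2 with TopHat2 2.1.1 and estimated FPKM with Cufflinks 2.2.1 (versions and build per the submitters' processing notes). The deposited FPKM values, with some gene IDs on several lines, were used without further scaling.

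Of 24594 entries, 1779 identical to another were dropped. Those whose mean reached 0.5 FPKM were fitted on log2(FPKM + 0.5), separately for each pair of groups, in limma 3.58.1 (R 4.3.3; eBayes with trend, no covariate), and p-values were adjusted by Benjamini-Hochberg over all 13590. The fit was tested on simulated data. Exact permutation tests (two-sided) enumerated all splits, and correlations used 100000 permutations (Python 3.11.15, scipy 1.17.1, numpy 2.4.6, pandas 2.3.3, matplotlib 3.10.9). A gene-name table matched 11462 of 22815 entries by Ensembl ID. Membership used no value, but the genes and lists were proposed with earlier results of these data known. Named genes were the list members, the 3 entries closest to each and up to 3 genes per list with the smallest p. Further list genes were named for their role, or to complete a list, after values were seen. RELN, PVALB, MOG, OLIG2 and KCNJ13 had several entries and were left out of list counts. Alternatives were other pseudocounts, filters, scalings, covariates, weights and left-out pigs. List counts without pigs 223-15 and 230-15 and the comparison of sexes were added after seeing the data. No sequence is shown.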

Additional observations from a re-analysis of the deposited data

Results flagged for a closer look

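NEUROD1 in Si-NEC pig 224-15 stood apart from the rest of its group. That pig had 11.7 FPKM and the other 5 Si-NEC pigs 8.69 to 9.78 FPKM, a gap of 0.644 of the group's range, above Dixon's 95% critical value for 6 pigs. This was 1 of 18 sets of a gene and a group checked, and chance flags about 1 in 20. Without this pig the log2 difference of NEUROD1 between Si-NEC and No NEC had an unadjusted limma p of 0.0566 and an exact permutation p of 0.0317.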

How the results depend on the processing

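None of the 6 genes had an adjusted p under 0.2 in any comparison under the alternatives with a test, which leave out the values of pigs ending in 14 alone, and none of the sex interactions did. Of 252 log2 differences under alternatives other than leaving out single pigs, 9 changed sign. With only pigs ending in 15, CALB2 in Si-NEC against No NEC was 0.10, PROX1 in Co-NEC against No NEC was -0.14 and DCX in Si-NEC against Co-NEC was 0.0048. With only pigs ending in 14, NES and NEUROD1 in Co-NEC against No NEC were -0.04 and 0.05 and PROX1 in Si-NEC against Co-NEC was -0.08. Array weights gave -0.04 for NES in Co-NEC against No NEC and 0.00064 for DCX in Si-NEC against Co-NEC, and NES in Co-NEC against No NEC was -0.03 without pigs 223-15 and 230-15. Leaving out single pigs changed the sign of 10 of 192, with ranges of -0.18 to 0.01 for CALB2 in Si-NEC against No NEC, and of -0.03 to 0.16 for NES, -0.04 to 0.21 for PROX1 and -0.09 to 0.07 for NEUROD1 in Co-NEC against No NEC. The 4 exact tests with a p under 0.05 became 2 with rescaled pigs (DCX in Co-NEC against No NEC and NEUROD1 in Si-NEC against Co-NEC) and 3 without pigs 223-15 and 230-15, and ranged from 2, without Si-NEC pig 224-15, to 5 when single pigs were left out. The 1 correlation with an adjusted p under 0.05 became 2 with rescaled pigs, 0 without pigs 223-15 and 230-15 and 0 with group means removed, and none of 60 correlations under the alternatives changed sign. The cause of these changes was not tested. No paired analysis was possible because the labels give no replicate numbers shared between groups. Without counts, the part of the spread that is counting error could not be separated.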
